A study of Mus musculus with 8 samples.

Results

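Small nucleolar RNAs were measured in HM-1 tumours, together with all other genes of a mouse transcriptome array. They were taken as every gene whose symbol begins with Snord, Snora or Scarna, read from probe sets that carry exactly 1 gene symbol, and a gene with several such probe sets was represented by the brightest. This gave 64 of the 11667 genes measured, of which 43 were box C/D RNAs (Snord), 18 were box H/ACA RNAs (Snora) and 3 were RNAs of the Cajal body (Scarna). A further 14 probe sets that name a small nucleolar RNA also name another gene, such as the ribosomal protein gene *Rpl13a* beside *Snord32a*, *Snord33* and *Snord34*, and were left out.

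The HM-1 line was made from an ovarian cancer of the mouse. B6C3F1 mice received these cells under the skin of the right flank, and then intraperitoneal rat IgG in the control group or an anti-VEGF antibody in the treated group. Injections began on day 3 by the sample labels, and tumours were taken once their long diameter was 1.5 cm. Each group had 4 tumours with 1 array each, all from this one cell line, and since no label states that they came from separate mice, the p-values measure the spread between these samples. Arrays have no read depth, and their number limits the precision.

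A small nucleolar RNA guides the chemical modification of other RNAs by base pairing. Box C/D RNAs carry the proteins Nop56, Nop58, Snu13 and the methyltransferase fibrillarin, and direct methylation of ribose in ribosomal RNA. Box H/ACA RNAs carry dyskerin, Nop10, Nhp2 and Gar1, and direct the change of uridine to pseudouridine. The RNAs of the Cajal body do the same for the small nuclear RNAs of the spliceosome. In mammals most of these RNAs lie in introns of a host gene, often one that encodes a ribosomal or nucleolar protein, and are cut out of the spliced intron, so that host and guide come from 1 transcript. A few, among them U8 (*Snord118*) and U13 (*Snord13*), have promoters of their own. A probe inside an intron detects the mature RNA, its precursor and the unspliced host alike, and the columns used here to purify total RNA hold short RNAs poorly, so the values below are levels of the locus's RNA and not of the mature guide alone.

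The arrays of the groups differed as a whole, which bears on every change given here. The standard deviation of log2 values over all genes was 1.12 to 1.66 on control arrays and 1.99 to 2.08 on anti-VEGF arrays, and control 3 had the lowest. With anti-VEGF antibody the bright genes were higher and the dim ones lower, the median log2 fold change being -1.07, -0.44 and 0.60 in the lowest, middle and highest tertile of level. Small nucleolar RNAs were bright, with 49 of 64 in the highest tertile, so the median change of all other genes within 0.25 log2 units of the same mean level is given beside a member where it matters, and the arrays were also quantile-normalised again, which makes their distributions equal. That step moved the median log2 fold change of all genes from -0.44 to -0.03. The 18 measured marker genes of pancreatic acinar cells, of 26 listed, were all lower with anti-VEGF antibody. Their mean level was 9.49 to 11.21 on the control arrays and 9.90, 4.21, 4.70 and 6.93 on anti-VEGF arrays 1 to 4. Of the markers of HM-1 epithelium 4 of 6 were higher (mean level 7.46 to 8.25 in controls and 8.18 to 8.52 with the antibody). The others, *Epcam* and *Cdh1*, had log2 fold changes of -0.48 and -0.55 and did not pass. Of the markers of myeloid cells 7 of 9 were higher (5.77 to 7.03 and 7.43 to 7.87). None of 3 endothelial markers passed the test, whose mean level was 5.04 to 5.40 in controls and 4.78 to 5.99 with the antibody. Of 3 T cell markers 2 were lower (4.52 to 5.16 and 3.95 to 4.28), and the 1 measured fibroblast marker was higher (4.16 to 5.58 and 4.82 to 6.34). The part of these cell types in the results below was not tested, and in whole tumours fewer cells of a type and less RNA per cell cannot be told apart. Where the acinar RNA in tumours grown under the skin came from was not tested either.

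Box C/D RNAs were more often higher than lower in the anti-VEGF-treated tumours, and box H/ACA RNAs were not. Of 43 box C/D RNAs 17 rose, 3 fell and 23 did not pass the test (adjusted p under 0.05, limma with Benjamini-Hochberg adjustment over all genes). Of 18 box H/ACA RNAs 3 rose, 5 fell and 10 did not pass, and of 3 Cajal body RNAs 1 rose. Over all 64 genes 21 rose and 8 fell, beside 19.1% of all genes that rose and 46.6% that fell. The median log2 fold change was 0.68 for box C/D RNAs and 0.07 for box H/ACA RNAs. Genes of the same level as each member had a median change, and the median of these was 0.77 and 0.55, in the same order. The box C/D median was no higher than the 0.77 of genes as bright, but this comparison drops the matching of each member to its own level. The matched differences, with a median of 0.37 for box C/D RNAs and -0.79 for box H/ACA RNAs, are given below. After quantile normalisation 12 members rose and 8 fell, where 7.47% of all genes rose and 4.45% fell. Of the 29 calls 13 held in that setting, 10 of them higher and 3 lower. By class, 8 box C/D RNAs then rose and 5 fell with a median of 0.61, and 3 box H/ACA RNAs rose and 3 fell with a median of -0.65. The share of calls that were higher therefore depended on the scaling, and the sign of the box H/ACA median turned with it. Without control 3, 22 members rose and 14 fell, and without control 3 and anti-VEGF 1 together 19 rose and 17 fell with a median of -0.04. The share of all genes called was not taken in either fit, so these counts cannot be read as particular to the members. With the mean acinar level entered as a covariate, 0 members and 0 of all 11667 genes passed in limma, and 23 members and 4329 genes had an unadjusted p under 0.05. The median log2 fold change of the members was 1.06 in that fit, and 0.43 without the covariate on the deposited scale.

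**Figure D1:**
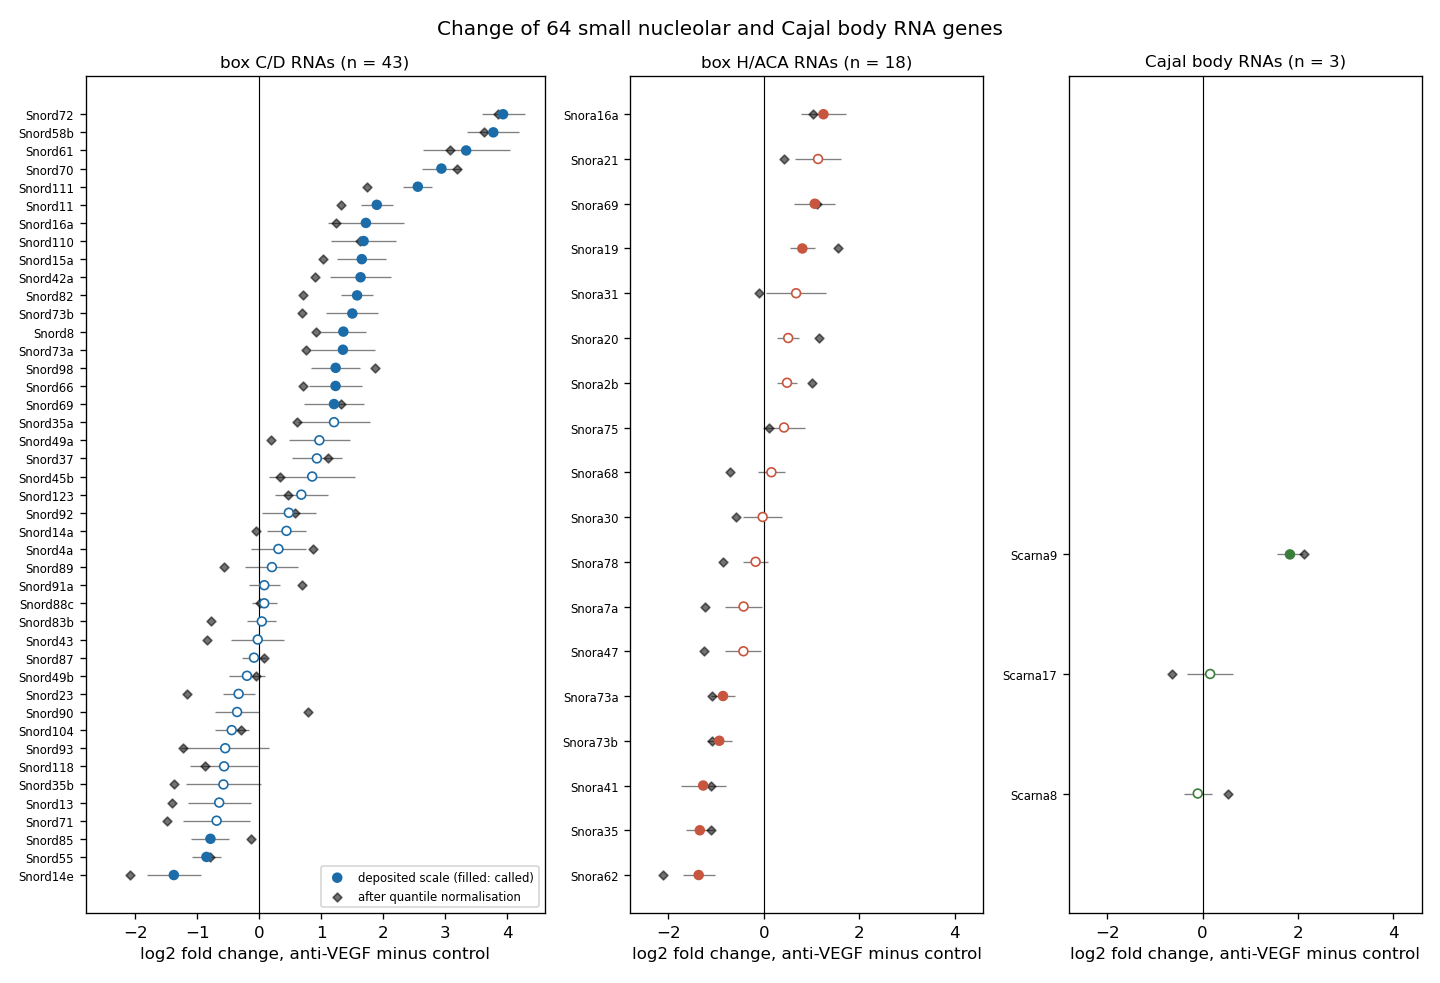
Log2 fold change of each of the 64 genes (anti-VEGF minus control, log2 units), by class. Circles with standard error bars show the deposited scale and are filled where the gene passed the test, and diamonds show the value after quantile normalisation. The 5 genes at the top of the box C/D panel lie above 2.5 on the deposited scale, while no box H/ACA RNA lies above 1.25.

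Without any model, all 4 anti-VEGF arrays lay above all 4 control arrays for 15 members and below them for 2, beside 19.8% and 41.5% of all genes. Of the 15, 13 were box C/D RNAs, 1 was a box H/ACA RNA and 1 a Cajal body RNA. *Snora35* was among the 2 that lay below. The share that lay above was thus close to that of all genes, and the share that lay below was far smaller. However, 49 members were in the highest tertile of level, where genes had a median log2 fold change of 0.60. These shares cover genes of every level and were not taken at the level of the members.

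The members were also set beside genes of their own level. Of all 64 members 32 lay above the median change of genes at their level. Of the box C/D RNAs 24 of 43 did so, and over all 43 the median difference from that level was 0.37. Of the box H/ACA RNAs 6 of 18 lay above it, and over all 18 the median difference was -0.79.

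**Figure D2:**
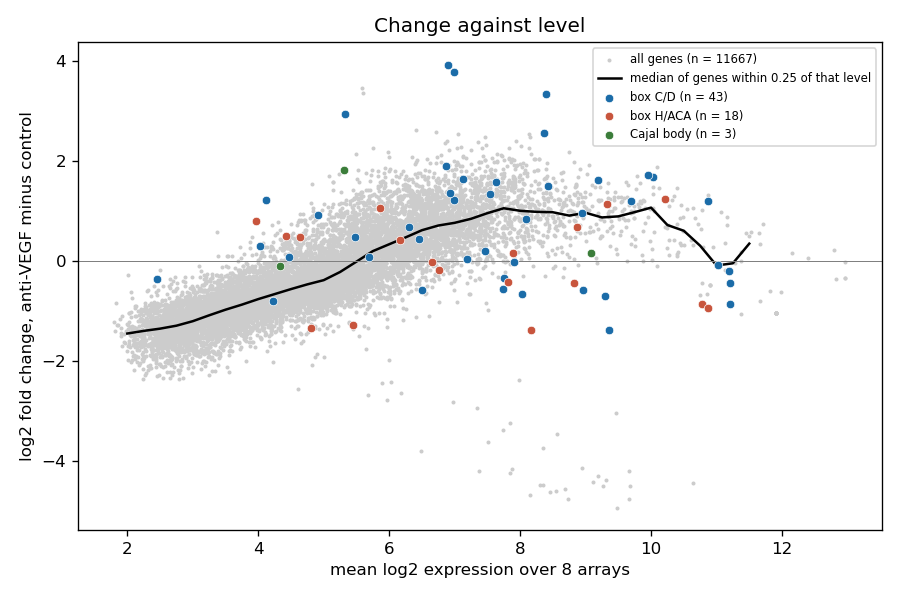
Log2 fold change against mean log2 expression over the 8 arrays. Grey points are all 11667 genes, the black line is the median of genes within 0.25 of that level, and coloured points are the small nucleolar RNAs by class. The line climbs from below 0 at the dim end to about 1 at bright levels, and the box C/D RNAs with the greatest change lie far above the line.

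The class medians on each array showed the same split. The median level of box C/D RNAs was 7.46, 7.08, 6.05 and 7.87 for controls 1 to 4, and 8.33, 8.10, 7.74 and 7.99 for the treated tumours in the same order. Box H/ACA RNAs had medians of 7.81, 6.79, 6.47 and 7.79 in controls and 8.03, 6.73, 6.83 and 7.02 with anti-VEGF antibody. The box C/D median minus the box H/ACA median, taken within an array, was -0.10 ± 0.34 (SD, n = 4) in controls and 0.89 ± 0.44 (SD, n = 4) with anti-VEGF antibody. Its highest control value was 0.28 on control 2 and its lowest treated value 0.29 on anti-VEGF 1, so that the groups only just did not overlap. After quantile normalisation these 2 arrays had the same value, and the difference was -0.14 ± 0.43 in controls and 0.76 ± 0.35 with anti-VEGF antibody (SD, n = 4). Control 3 was the lowest control for 45 of 64 members, against 42.2% of all genes. Anti-VEGF 1, the treated array with the highest acinar level, was the highest of its group for 15 of 18 box H/ACA RNAs and 20 of 43 box C/D RNAs, against 58.3% of all genes.

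**Figure D3:**
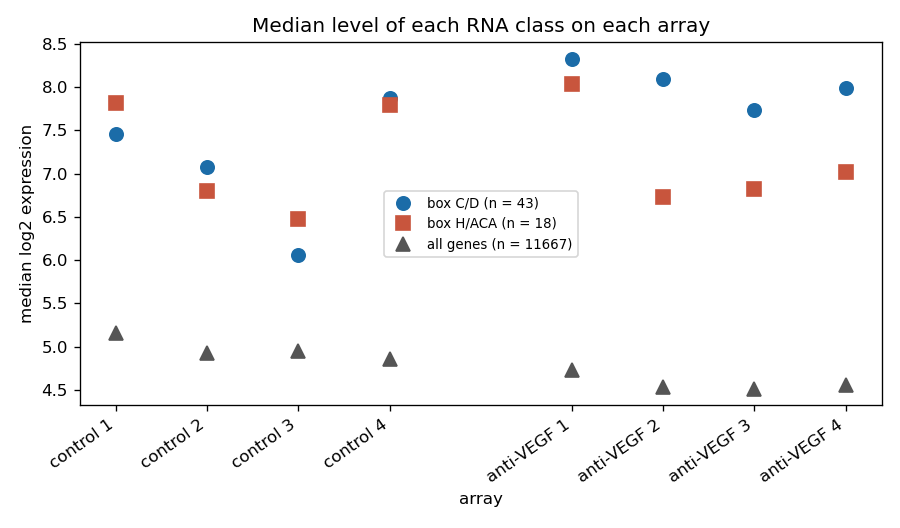
Median log2 expression of box C/D RNAs, box H/ACA RNAs and all genes on each of the 8 arrays. Box C/D medians of the treated arrays (7.74 to 8.33) overlap with those of the controls (6.05 to 7.87), and control 3 is lowest for both classes.

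Box C/D RNAs in ribosomal protein genes held the highest log2 fold changes of single members. Of 14 such RNAs 7 rose and 1 fell, and the median log2 fold change was 1.28 (0.73 after quantile normalisation, with 2 higher and 1 lower), where 19.1% of all genes rose on the deposited scale and 7.47% after quantile normalisation. *Snord72*, in the *Rpl37* gene of the large ribosomal subunit, had a log2 expression of 5.20, 5.36, 3.74 and 5.41 in the controls and 8.68, 8.76, 8.73 and 9.26 with anti-VEGF antibody. The groups were separated by more than 3 log2 units. The increase of 3.93 log2 units (standard error 0.35, limma adjusted p = 0.000526), or 15.2-fold, ranked 1 among all 11667 genes, on the deposited and the quantile-normalised scale (3.85, adjusted p = 0.0143). *Snord58b*, in *Rpl17*, another gene of the large subunit, measured 5.78, 5.22, 3.66 and 5.76 in the controls and 8.78, 8.97, 8.49 and 9.27 in the treated tumours. Again no array of one group reached the other. It ranked 2 of all genes at 3.77 (standard error 0.42, adjusted p = 0.000656, limma) and 3 after quantile normalisation (3.62, adjusted p = 0.0183). Neither host gene was tested here, and genes at the level of these RNAs had a median change of 0.76.

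The other RNAs of ribosomal protein genes changed less. *Snord16a* in *Rpl4* (log2 fold change 1.72), *Snord15a* in *Rps3* (1.65), *Snord42a* in *Rpl23a* (1.63), and *Snord73b* and *Snord73a* in *Rps3a1* (1.50 and 1.35) rose on the deposited scale, and none of these 5 passed after quantile normalisation. For *Snord16a* the value was 0.94 without control 3 (adjusted p = 0.0043, limma), and for *Snord73a* it was 0.78 (adjusted p = 0.0497). *Snord35a*, which lies in *Rpl13a*, measured 10.001, 9.20, 6.94 and 10.25 in the controls and 10.16, 10.33, 10.19 and 10.52 with anti-VEGF antibody. The groups overlapped because control 4 reached the treated range, and the difference of 1.20 (standard error 0.59) did not pass.

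In genes of nucleolar proteins 5 of 8 box C/D RNAs rose and none fell (median 1.39), against the same shares of all genes. After quantile normalisation 4 rose and 1 fell, with a median of 1.01. *Nop58*, which encodes a core protein of the box C/D particle itself, holds *Snord70* and *Snord11*. *Snord70* measured 3.55, 3.46, 4.17 and 4.22 in the controls and 6.12, 7.18, 6.36 and 7.49 with anti-VEGF antibody. Its level was low in all controls, where genes of its mean level changed by a median of -0.18, and its log2 fold change was 2.94 (standard error 0.32, adjusted p = 0.000627, limma) and 3.19 after quantile normalisation (adjusted p = 0.0143). *Snord11* measured 5.29, 5.96, 5.79 and 6.66 in the controls and 7.72, 8.07, 7.74 and 7.75 in the treated tumours, so the groups lay apart by about 1 log2 unit. The increase was 1.89 log2 units (standard error 0.26, adjusted p = 0.000972, limma), or 1.31 after quantile normalisation (adjusted p = 0.0451). *Snord110*, in the gene of the partner protein Nop56, rose by 1.68 on the deposited scale and 1.63 after quantile normalisation. *Snord69*, in the nucleostemin gene *Gnl3*, rose by 1.20 and 1.32. *Snord82*, in the nucleolin gene *Ncl*, measured 6.61, 7.41, 6.59 and 6.77 in the controls and 8.15, 8.995, 7.99 and 8.56 in the treated tumours. It rose by 1.58 (standard error 0.26, adjusted p = 0.00141, limma), and the value of 0.70 after quantile normalisation did not pass (adjusted p = 0.169). *Snord110* and *Snord69*, like *Snora19*, *Snord14e* and the others named outside the leading changes, were picked after their values were seen.

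Both other box C/D RNAs among the leading changes lie in genes of pre-mRNA handling. *Snord61*, in the X-linked *Rbmx*, which encodes an RNA-binding protein, measured 7.52, 6.32, 4.38 and 8.67 in the controls and 9.84, 10.23, 10.11 and 10.04 with anti-VEGF antibody. The controls spread over more than 4 log2 units and the treated arrays over less than 1. The increase was 3.34 (standard error 0.70, adjusted p = 0.00315, limma), 2.55 without control 3, and 3.07 after quantile normalisation, where it missed the threshold (adjusted p = 0.0554). *Snord111*, in *Sf3b3*, the gene of a splicing factor subunit, measured 7.28, 7.08, 6.42 and 7.56 in the controls and 9.65, 9.55, 9.62 and 9.74 in the treated tumours. The treated arrays lay within 0.2 of each other. It rose by 2.56 (standard error 0.23, adjusted p = 0.000526, limma), beside a median of 0.97 in genes as bright, and by 1.74 after quantile normalisation (adjusted p = 0.00342).

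**Figure D4:**
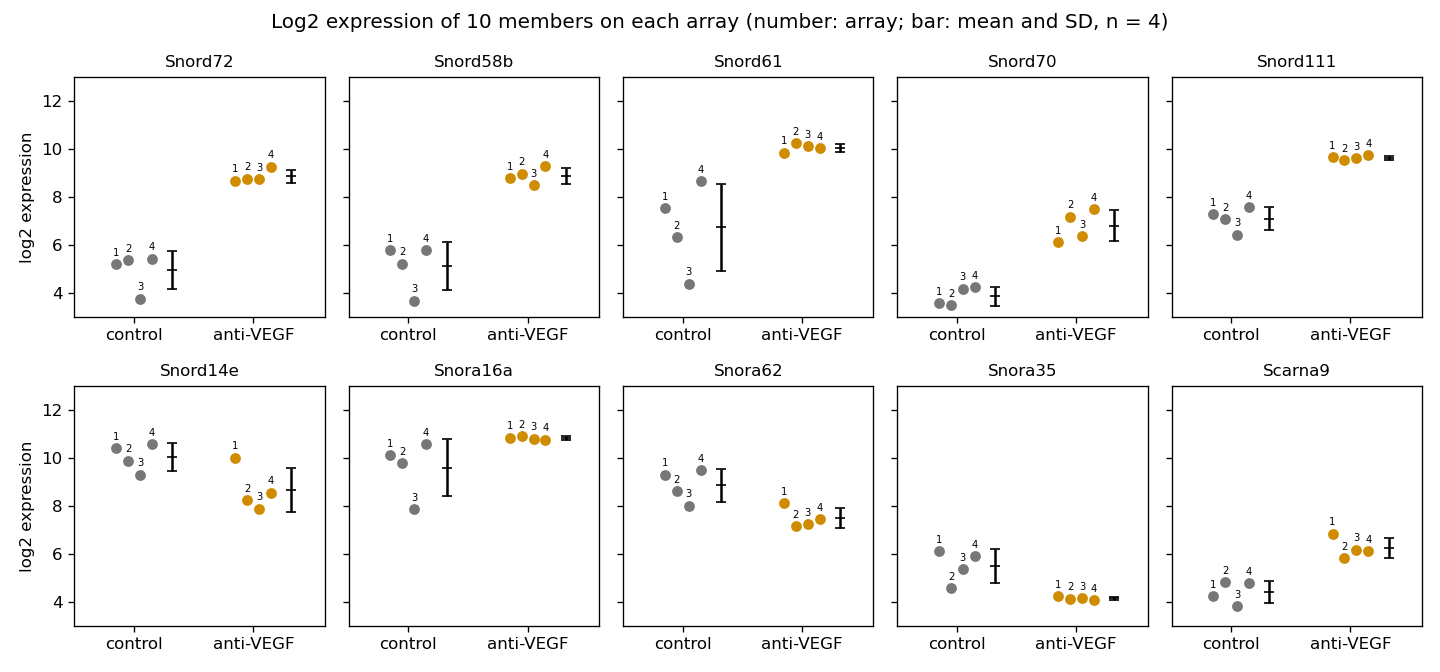
Log2 expression of 10 genes on each array, numbered by replicate, with the mean and standard deviation of the 4 arrays of a group at the right of the points. In the upper row *Snord72*, *Snord58b*, *Snord61*, *Snord70* and *Snord111* lie higher on every anti-VEGF array, and in the lower row *Snora35* lies lower on every anti-VEGF array.

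Box C/D RNAs of other hosts went both ways. In long non-coding host RNAs 1 of 8 rose and none fell, beside 19.1% and 46.6% of all genes. Their median was -0.14 (0.01 after quantile normalisation). The one that rose was *Snord8* (1.36, adjusted p = 0.00916, limma), with no overlap between the groups, and its value after quantile normalisation was 0.91 (adjusted p = 0.174). Placed by the shorter of the genes that contain it, *Snord8* also lies within *Chd8*, which encodes a protein. *Snord98*, in *Ccar1*, rose by 1.23 (adjusted p = 0.0204, limma) and by 1.87 after quantile normalisation (adjusted p = 0.0367). *Snord66*, in the translation factor gene *Eif4g1*, rose by 1.23 (adjusted p = 0.0266, limma) and missed the threshold after quantile normalisation (0.71, adjusted p = 0.304). The 3 RNAs that lie inside no annotated gene, *Snord118*, *Snord13* and *Snord89*, had values of -0.57, -0.65 and 0.20, none of which passed. U8, which is needed to process the large-subunit ribosomal RNA, measured 7.64, 6.52, 5.24 and 7.76 in the controls and 7.36, 5.86, 5.59 and 6.09 in the treated tumours. U13, which in human cells guides acetylation of small-subunit ribosomal RNA, measured 9.06, 8.35, 6.90 and 9.08 in the controls and 8.77, 7.497, 6.83 and 7.70 with anti-VEGF antibody. Both overlapped between the groups, and U13 fell after quantile normalisation (-1.41, adjusted p = 0.0463, limma). A second probe set of U13 gave a difference of -0.78, and a second, dim probe set of U8 (mean level 2.36) gave -1.58. *Snord14e* (U14), in the heat shock protein gene *Hspa8*, had the lowest value of the class. It measured 10.42, 9.89, 9.31 and 10.58 in the controls and 10.01, 8.23, 7.89 and 8.55 in the treated tumours, so that anti-VEGF 1 lay within the control range. Its log2 fold change was -1.38 (standard error 0.43, adjusted p = 0.0181, limma) and -2.08 after quantile normalisation (adjusted p = 0.024). The platform names the probe sets of 4 members unmapped, those of *Snord14e*, *Snord13*, *Snora73a* and *Snora73b*. Where a host is given for these, it follows the RefSeq position of the gene and not that of the probes.

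Box H/ACA RNAs went both ways. *Snora16a*, in the non-coding RNA *Snhg12*, was the only one whose treated arrays all lay above the controls, with 10.12, 9.77, 7.87 and 10.59 in the controls and 10.86, 10.92, 10.80 and 10.77 with anti-VEGF antibody. The treated arrays lay only 0.2 to 0.3 above control 4, and control 3 stood well below the rest. Its log2 fold change of 1.25, with a standard error of 0.47 (adjusted p = 0.0366, limma), was 0.68 without control 3 (adjusted p = 0.0115). *Snora19* in *Eif3a* (0.81) and *Snora69* in *Rpl39* (1.07) also rose, and of these 3 only *Snora19* passed after quantile normalisation (1.56, adjusted p = 0.0184).

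*Snora35*, in the serotonin receptor gene *Htr2c*, which is mainly active in the brain, measured 6.11, 4.55, 5.36 and 5.91 in the controls and 4.22, 4.13, 4.14 and 4.07 in the treated tumours. All treated arrays lay at one low level, below every control. It fell by 1.34 on the log2 scale (standard error 0.30, adjusted p = 0.00386, limma), and the value of -1.11 after quantile normalisation missed the threshold (adjusted p = 0.0696). *Snora62* (E2), in *Rpsa*, which encodes a protein of the small subunit, measured 9.30, 8.62, 8.002 and 9.49 in the controls and 8.10, 7.16, 7.25 and 7.44 with anti-VEGF antibody. The groups overlapped in 1 pair of arrays, control 3 and anti-VEGF 1. It changed by -1.37 (standard error 0.33, adjusted p = 0.00575, limma), while genes of its level had a median of 1.01, and by -2.11 after quantile normalisation (adjusted p = 0.0143). *Snora41*, in the translation factor gene *Eef1b2*, changed by -1.27 (adjusted p = 0.0346, limma) and -1.11 after quantile normalisation (adjusted p = 0.203).

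*Snora73a* and *Snora73b* (U17), which serve in cleavage of the ribosomal RNA precursor, are near-identical copies in *Snhg3*, and their probes may not tell them apart. *Snora73a* measured 11.10, 11.21, 11.12 and 11.36 in the controls and 11.17, 10.06, 9.92 and 10.21 with anti-VEGF antibody. *Snora73b* measured 11.25, 11.29, 11.37 and 11.41 in the controls and 11.26, 10.05, 10.004 and 10.28 in the treated tumours. For both, anti-VEGF 1 sat at the level of the controls and the other 3 treated arrays about 1 log2 unit lower. They fell by 0.86 and 0.93 (adjusted p = 0.0149 and 0.0109, limma), and after quantile normalisation the values were -1.09 and -1.08 (adjusted p = 0.0454 and 0.0538).

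Of the Cajal body RNAs, *Scarna9* rose and the others did not pass. *Scarna9*, which in human cells guides modification of the U2 spliceosomal RNA, lies in the centriole gene *Cep295* and measured 4.24, 4.81, 3.80 and 4.76 in the controls and 6.84, 5.82, 6.17 and 6.10 in the treated tumours. The groups lay 1 log2 unit apart. Its log2 fold change was 1.83 (standard error 0.28, adjusted p = 0.00115, limma) and 2.13 after quantile normalisation (adjusted p = 0.0206). *Scarna17* measured 9.55, 9.25, 7.33 and 9.89 in the controls and 9.82, 8.92, 9.05 and 8.87 in the treated tumours (0.16, and -0.64 after quantile normalisation). *Scarna8* measured 4.97, 3.60, 4.46 and 4.49 in the controls and 4.80, 4.02, 4.29 and 3.998 in the treated tumours (-0.10, and 0.53 after quantile normalisation). Both overlapped between groups and their sign turned with the scaling. In all 9 members changed sign after quantile normalisation, none of them called on the deposited scale.

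Host genes were compared with the RNAs they hold. In the RefSeq annotation 61 of 64 members lie within another gene, in 54 different hosts, and 12 members had a host that was itself measured. Promoters are shown for some hosts of members described above, chosen with the values known, because host and guide start at the same promoter. Windows of other hosts, such as *Htr2c* (*Snora35*) and *Cep295* (*Scarna9*), are not shown. Genes of ribosomal proteins and many hosts of small nucleolar RNAs are known to start their transcripts in a run of pyrimidines. Each window (RefSeq, GRCm38.p6) runs from 50 bases before to 10 after the annotated start, on the strand of the gene, with the longest unbroken run of C and T in capitals.
Rpl37 (*Snord72*), chr15:5116563-5116622, plus strand: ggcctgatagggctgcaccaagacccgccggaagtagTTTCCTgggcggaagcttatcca
Nop58 (*Snord70*, *Snord11*), chr1:59684956-59685015, plus strand: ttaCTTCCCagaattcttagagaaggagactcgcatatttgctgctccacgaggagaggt
Rbmx (*Snord61*), chrX:57393027-57393086, minus strand: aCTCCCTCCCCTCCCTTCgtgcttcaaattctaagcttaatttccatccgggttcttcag
Sf3b3 (*Snord111*), chr8:110846794-110846853, minus strand: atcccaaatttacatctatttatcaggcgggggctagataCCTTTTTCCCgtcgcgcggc
Rpsa (*Snora62*), chr9:120127716-120127775, plus strand: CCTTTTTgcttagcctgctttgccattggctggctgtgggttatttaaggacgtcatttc
Snhg12 (*Snora16a*), chr4:132308628-132308687, plus strand: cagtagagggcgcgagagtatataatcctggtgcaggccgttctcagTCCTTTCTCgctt
The longest run had 17 letters in *Rbmx*, 10 in *Sf3b3*, 9 in *Snhg12*, 7 in *Rpsa* and 6 in *Rpl37* and *Nop58*. It was sought anywhere in the window and need not cover the start. In *Rbmx*, *Rpsa* and *Nop58* it stands at or near the upstream end of the window. A run of at least 8 such letters stood in 34.1% of the 41 hosts with a window, counted where any window of the host held one. Of all 32851 single windows 25.1% held one, each searched on the sense strand alone. The shares differ in unit, since some hosts have several windows. These are descriptions of the letters and were not set against the changes.

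The change of the RNAs was set against that of their hosts. For each of the 12 pairs the host's log2 value was subtracted from that of the RNA on the same array, and this difference was compared between the groups by an exact two-sided permutation test, whose smallest possible p is 0.0286. In 3 pairs the groups did not overlap, and in 9 they did. *Sf3b3* itself rose from 7.96 ± 0.84 to 9.20 ± 0.13 (SD, n = 4; log2 fold change 1.24), and *Snord111* minus *Sf3b3* rose by 1.32 (exact p = 0.0286). The value was 1.33 after quantile normalisation. *Rpsa* measured 9.80 ± 0.26 in controls and 9.92 ± 0.03 with anti-VEGF antibody (SD, n = 4), while *Snora62* was lower, and the difference fell by 1.49 (exact p = 0.0286). *Nop53*, which encodes a factor of large-subunit assembly, measured 7.22 ± 0.47 and 7.77 ± 0.12 (SD, n = 4). *Snord23* in it changed by -0.33 without passing, and *Snord23* minus *Nop53* by -0.88 (exact p = 0.0286).

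*Nop58* rose from 7.10 ± 1.07 to 8.74 ± 0.07 (SD, n = 4), a log2 fold change of 1.65 (adjusted p = 0.00749, limma). *Snord11* minus *Nop58* differed by 0.25 (exact p = 0.629) and *Snord70* minus *Nop58* by 1.29 (exact p = 0.114), both with overlapping groups. *Snord16a* minus *Rpl4* differed by 1.22 (exact p = 0.143), of which 0.43 was left after quantile normalisation. For *Snord73b* minus *Rps3a1* the difference was 1.18 (exact p = 0.0571). Over the 19 comparisons of this kind, with hosts or between RNAs of 1 host, the lowest Benjamini-Hochberg adjusted p was 0.109, so none passed.

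**Figure D5:**
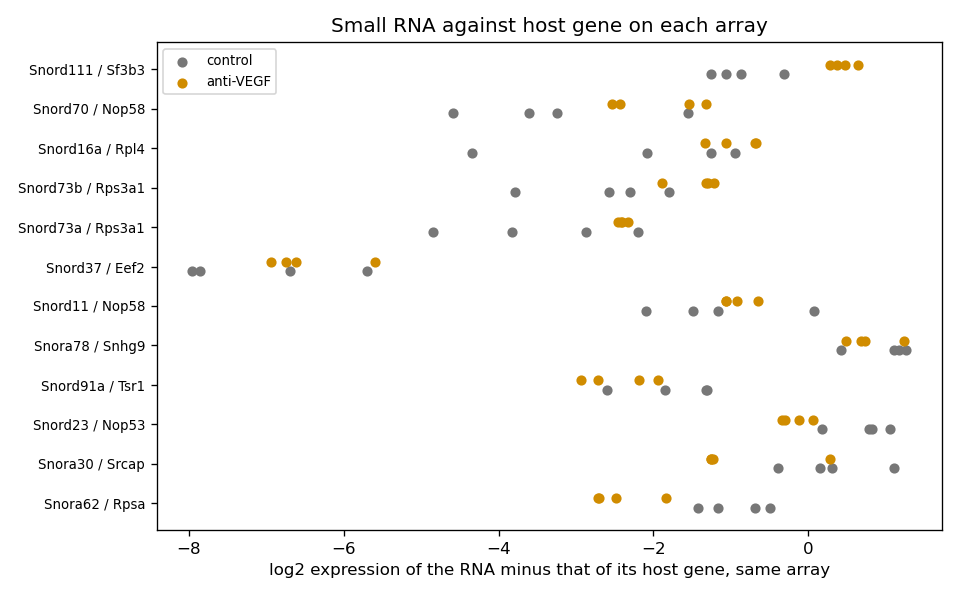
Log2 expression of each small RNA minus that of its host gene on the same array, for the 12 pairs with a measured host (grey, 4 control arrays; orange, 4 anti-VEGF arrays). The groups lie apart for *Snord111* and *Sf3b3*, *Snord23* and *Nop53*, and *Snora62* and *Rpsa*. The position along the axis also reflects the probes, so only shifts between the groups can be read.

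Of 7 hosts with 2 measured RNAs, 2 showed a difference without overlap. *Snord11* minus *Snord70*, both in *Nop58*, was 1.75, 2.50, 1.62 and 2.44 in the controls and 1.603, 0.89, 1.38 and 0.26 with anti-VEGF antibody (difference -1.04, exact p = 0.0286; -1.87 after quantile normalisation). *Snord49a* minus *Snord49b*, in the non-coding host *2410006H16Rik*, changed by 1.17 (exact p = 0.0286), which became 0.24 after quantile normalisation. *Snora75* minus *Snord82* in *Ncl*, a box H/ACA and a box C/D RNA of 1 transcript, was -0.65, -1.46, -1.04 and -0.42 in the controls and -0.19, -3.00, -2.30 and -2.68 in the treated tumours. Here anti-VEGF 1 lay above all controls and the other 3 treated arrays below them (difference -1.15, exact p = 0.171). *Snord42a* minus *Snord4a* in *Rpl23a* differed by 1.32 (exact p = 0.343), *Snord43* minus *Snord83b* in *Rpl3* by -0.07, *Snord73a* minus *Snord73b* by -0.15 and *Snora73a* minus *Snora73b* by 0.08.

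Genes that build, mature or use these particles were higher or did not pass the test. Of 45 genes listed 19 were measured, of which 12 rose and none fell on the deposited scale, the median log2 fold change being 0.84. After quantile normalisation 7 rose and none fell, with a median of 0.41. Of all genes 19.1% rose on the deposited scale and 7.47% after quantile normalisation, and genes as bright as these had a median of 0.50, while 14 of the 19 lay above the median of genes at their own level. Among assembly factors, *Naf1*, which brings box H/ACA particles together on nascent RNA, measured 4.96, 5.68, 4.96 and 5.64 in the controls and 6.66, 7.67, 7.59 and 7.65 with anti-VEGF antibody. It rose by 2.08 (adjusted p = 0.000916, limma) and by 1.86 after quantile normalisation (adjusted p = 0.0184). *Nufip1*, an adaptor of box C/D assembly, rose by 1.29, *Shq1*, a chaperone of dyskerin, by 0.84, and *Rpap3*, of the R2TP chaperone complex, by 0.80. The box H/ACA core gene *Nop10* changed by -0.11, which did not pass.

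Among enzymes that free or trim the RNAs, *Dis3*, a nuclease of the exosome, rose by 1.37, *Parn*, a deadenylase that trims 3′ ends, by 1.20, and *Dbr1*, which opens the intron lariat, by 0.55. Of genes for the synthesis of ribosomal RNA, *Utp15*, of the small-subunit processome, rose by 1.53, *Taf1b*, of the polymerase I machinery, by 1.25 and *Nop2*, a methyltransferase, by 1.07. *Nolc1*, a chaperone of both kinds of particle, rose by 1.11. *Rpap3*, *Nolc1*, *Dbr1*, *Nop2* and *Nop58* did not pass after quantile normalisation.

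Other short RNA genes are given for comparison, with no test of the difference. Of 438 microRNA genes 17 rose and 247 fell (median -0.76), where 19.1% of all genes rose and 46.6% fell (median -0.44). After quantile normalisation 20 rose and 40 fell (median -0.13), beside 7.47% and 4.45% of all genes. On the deposited scale 2 of 17 other short structured RNA genes rose and 3 fell (median -0.43), against the same 19.1% and 46.6%. The median level of the microRNA genes was 3.49 to 3.74 on treated arrays, while the small nucleolar RNAs stood at a median of the 93.4th percentile of all genes. Box C/D RNAs had a median annotated length of 68 bases and box H/ACA RNAs of 120.5. Across the 64 members Spearman's rho between length and log2 fold change was -0.44, and -0.32 within each of the 2 large classes, given as a description over genes that share the same 8 arrays.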

How the data were processed

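The authors deposited log2 expression values of 13266 probe sets for 8 tumours (4 per group), which they describe as normalised by robust multi-array average in R. Transcriptome Analysis Console and RMA are the tools in the submitters' processing notes. How the probe sets were chosen, and the genome build, are not given in the sources used here. Gene symbols came from the platform annotation (11743 with 1 symbol, 800 with several, 723 with none), and 11595 of those with 1 symbol were found in the RefSeq table. Hosts were RefSeq genes that span the RNA, without regard to strand. Where several did, the measured one was taken, else the shortest. All 11667 genes were fitted with limma 3.58.1 (lmFit, eBayes) in R 4.3.3 on treatment alone, and adjusted together at 0.05. The script was tested on simulated data. Exact tests used scipy 1.17.1 and all 70 assignments of the arrays. Named members were the 6 largest increases and 4 largest decreases of each class among calls without overlap, all Cajal body RNAs, members in hosts that hold several, and *Snord35a*. The values of 2 further calls are not reported here. Members and lists were chosen with earlier results of these data known. Alternatives were other scalings, a filter on dim genes, the mean of probe sets, eBayes with trend and robust, a replicate block and leaving out each array. Same-numbered arrays deviated together with correlations of 0.190, 0.126, -0.037 and 0.163, so the numbers were not taken as pairs.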

Additional observations from a re-analysis of the deposited data

Results flagged for a closer look

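In the groups of 4 arrays of the 25 members named by rule and all 10 measured hosts, 5 of 70 groups held an array far from the other 3 by Dixon's test, where chance alone gives about 1 in 20. Control 3 was low for *Snord72* (3.74 log2 units) and anti-VEGF 4 high for the same gene (9.26). Anti-VEGF 1 was high for *Snora75* (7.96) and low for the host *Sf3b3* (9.01). Anti-VEGF 2 was high for *Snord11* (8.07). The distance was small for *Snord72*, *Snord11* and *Sf3b3* in the treated group next to the difference between groups. The log2 fold change of *Snord72* was 3.54 without control 3 and 3.79 without anti-VEGF 4. That of *Snord11* was 1.81 without anti-VEGF 2, its flagged array, and 1.85 without control 3. For *Snora75* the distance set the direction, since its log2 fold change of 0.42 became -0.10 without anti-VEGF 1.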

How the results depend on the processing

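The median log2 fold change of the small nucleolar RNAs stayed positive in every alternative listed in the methods (0.11 to 0.85). Counts of calls depended on the scaling. After quantile normalisation 12 members rose, 8 box C/D RNAs rose and 5 fell, and 3 box H/ACA RNAs fell. After median centring 2 members fell, with 0 box C/D and 2 box H/ACA RNAs lower and 6 box H/ACA RNAs higher, and the medians of box C/D and box H/ACA RNAs were 1.09 and 0.48. After cyclic loess 13 members rose and 15 fell, with 9 box C/D RNAs higher and 8 lower, and the medians were 0.43 and -0.75. In all 4 scalings 8 members rose and 1 fell. Without the lowest tertile 1 box H/ACA RNA rose. Leaving out each array in turn gave 4 to 14 members lower, 1 to 8 box C/D RNAs lower, 0 to 4 box H/ACA RNAs higher and 3 to 6 lower. The 14 came without control 3, and 5, 5 and 4 came without control 1, anti-VEGF 2 and anti-VEGF 3. Of the 29 calls 17 held in all 8 of these fits. With the replicate block 24 members rose and 9 fell. Apart from quantile normalisation, whose shares are given above, the share of all genes called was not taken in these alternatives. Their counts therefore cannot be read as particular to the members.

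Chosen after seeing the data, the acinar level as a covariate left 0 members called in either direction and 0 box C/D and 0 box H/ACA RNAs, and 0 of all 11667 genes in limma, with 23 members and 4329 genes at an unadjusted p under 0.05, while the median log2 fold change of the members was 1.06. Without control 3 and anti-VEGF 1 together 17 members fell, 9 of them box C/D RNAs, and the median of all members was -0.04. Quantile values without control 3 gave 11 box C/D RNAs higher and 7 lower, and 3 box H/ACA RNAs lower. The cause of these differences was not tested, and for the fits that left out arrays no share of all genes was taken.

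Signs also turned for single genes with values of -0.20 to 0.63 on the deposited scale. After quantile normalisation the log2 fold changes were -0.31 for *Nop53*, -0.35 for *Phax*, -0.41 for *Rpsa*, -0.056 for *Ruvbl2*, -0.64 for *Scarna17*, 0.53 for *Scarna8*, -0.15 for *Snhg9* and -0.78 for *Snord83b*. After cyclic loess they were -0.32 for *Eef2*, -0.36 for *Nop53*, -0.34 for *Phax*, -0.20 for *Rpl4*, -0.50 for *Rps3a1*, -0.74 for *Rpsa*, -0.020 for *Ruvbl1*, -0.14 for *Ruvbl2*, -0.77 for *Scarna17*, 0.52 for *Scarna8*, -0.22 for *Snhg9*, -0.0002 for *Snora75* and -0.80 for *Snord83b*. Of these only *Rpl4* had been called (0.50). After median centring they were 0.30 for *Nop10*, 0.32 for *Scarna8*, 0.39 for *Snord43*, 0.22 for *Snord49b* and 0.34 for *Wrap53*. Leaving out single arrays gave -0.40 to 0.46 for *Scarna17*, -0.36 to 0.10 for *Scarna8*, -0.19 to 0.21 for *Snhg9*, -0.10 to 0.65 for *Snora75*, -0.51 to 0.27 for *Snord43*, -0.37 to 0.025 for *Snord49b*, -0.11 to 0.19 for *Snord83b* and -0.21 to 0.051 for *Wrap53*. A search for the box C motif in the RNAs was not run. Dim genes lie near the array's background, so small changes at low levels cannot be measured well.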
